A study of Mus musculus with 2 samples.

Results

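Interferon-induced genes were followed in lung tissue of C57BL/6 mice, an inbred laboratory strain, after exposure to PM2.5, the fine fraction of airborne particles. The set comprised 37 genes chosen by symbol: the Ifit, Oas and Mx genes, other antiviral effectors, 4 transcription factors, 3 sensors of viral RNA, and the guanylate-binding proteins (Gbp) with the immunity-related GTPases (Irg). Symbols were matched to the Ensembl identifiers of the files through GENCODE M21, which found 35 of the 37 among the 37315 identifiers. Gbp5 and Gbp6 had no matching row, so their levels were not analysed here. Gbp5 enters the comparison of promoters alone.

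Messenger RNA of whole lung was sequenced from PM2.5-exposed mice in 1 library, with 57435027 counts, and from control mice in 1 library, with 62788045 counts. The labels give both groups the same strain and tissue and name no genotype, so the exposure is the only stated difference. Both titles include 12W, an abbreviation that is not explained. The sources used here do not give sex, age, dose, route, duration or the number of animals behind a library. With 1 library per group the difference has no replicate check. A ratio below is the level in the PM2.5 library over that in the control library, from CPM, the counts scaled to a common library size. Ranges in brackets are exact 95% intervals that cover counting error alone. The values compare these libraries, not the conditions.

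Interferons are cytokines that cells release on sensing a virus or other danger, or, for interferon gamma, that T cells and natural killer (NK) cells release. Type I interferon acts through a complex with STAT2 and IRF9 that binds the interferon-stimulated response element (ISRE). Interferon gamma acts mainly through another element, the gamma-activated site (GAS). The Ifit, Oas and Mx genes are the classical type I targets, whereas the Gbp and Irg GTPases, which attack the vacuoles in which parasites and bacteria live, respond most strongly to interferon gamma.

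The set was spread on both sides of equality, with 26 genes above a ratio of 1 and 9 below it. The median log2 ratio over the 35 genes was 0.25, against -0.09 over all 14518 genes whose mean reached 1 CPM. All 35 genes reached 1 CPM in both libraries. Past 2-fold on the higher side in PM2.5-exposed lung were 5 of the 35 genes, or 14.3%, where 7.25% of all genes tested were. These were Oas2, Mx1, Mx2, Zbp1 and Gbp4, of which Gbp4 alone had a mean above 10 CPM. At least 2-fold lower was 1 gene, Rsad2, or 2.86%, where 6.04% of all genes tested were. With a size of 1.5-fold the set had 10 genes higher and 4 lower, beside 14.9% and 19.1% of all genes tested. Each count also required a counting interval that excluded a ratio of 1. Of all genes tested that met the 2-fold rule, 54.6% were higher, a share that became 77.6% with library totals and 69.2% with upper quartile scaling. These scalings raised every log2 ratio by 0.23 and 0.14.

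**Figure D1:**
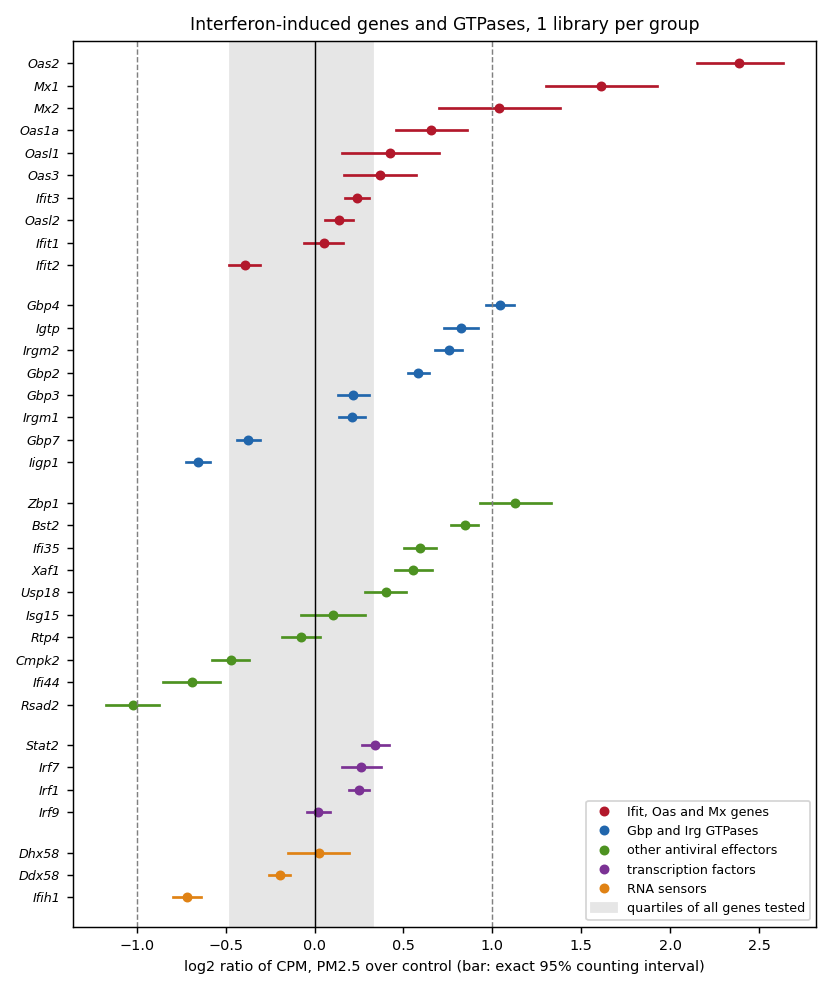
Log2 ratio of CPM, PM2.5 over control, for the 35 genes grouped by role, with exact 95% counting intervals as bars, 1 library per group. The grey band spans the quartiles of all genes tested, -0.48 to 0.33, and the dashed lines mark a 2-fold difference. Oas2 lies farthest to the right at 2.39 and Rsad2 farthest to the left at -1.02.

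The contrast between the type I targets and the GTPases gave medians that lay close together. The log2 ratio had a median of 0.40 over the 10 Ifit, Oas and Mx genes and of 0.40 over the 8 measured Gbp and Irg genes, and the medians differed by -0.0039. Library totals in place of TMM put both medians at 0.63. Summed over the genes, the Ifit, Oas and Mx level was 209 CPM in the PM2.5 library and 180 CPM in the control library, a ratio of 1.16 (1.13 to 1.19). The Gbp and Irg level was 468 CPM in the PM2.5 library and 385 CPM in the control library, a ratio of 1.22 (1.19 to 1.24). In both families single genes differed far more from one another than the medians did. Members of a family are not replicates, so no test of this contrast was made.

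Among the Ifit, Oas and Mx genes the ratio was higher at low levels. The 4 Ifit, Oas and Mx genes whose mean reached 10 CPM had log2 ratios of -0.39 to 0.24, and the 6 below that level had 0.37 to 2.39. All 8 GTPases exceeded 10 CPM, with log2 ratios of -0.66 to 1.04. Over all genes tested the ratio was also higher at low levels (Spearman's rho = -0.35 across 14386 genes, whose values are not independent). Over genes of at least 10 CPM the medians were 0.09 for Ifit, Oas and Mx and 0.40 for Gbp and Irg. Per kilobase of exon, Bst2 had the highest level of the set, 73.4 CPM per kilobase in the PM2.5 library and 40.9 in the control library. Mx2 had the lowest, with 1.03 CPM per kilobase in the PM2.5 library and 0.501 in the control library.

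**Figure D2:**
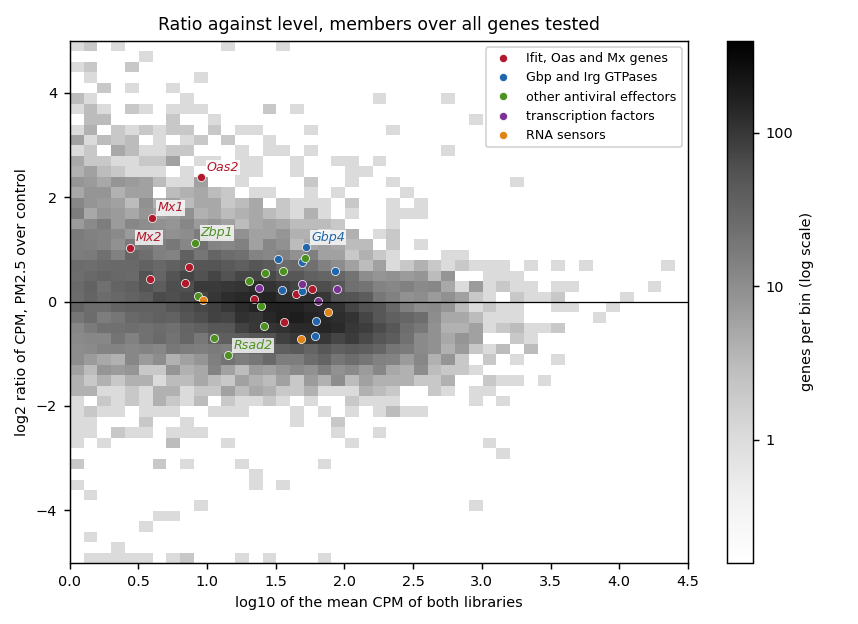
Log2 ratio, PM2.5 over control, against the log10 mean CPM of both libraries, with the 35 genes as coloured points over the density of all 14518 genes tested in grey (log scale, ratios beyond the axis drawn in its outermost bins). Oas2, Mx1 and Mx2 are at the left among the genes of low level, and Gbp4 stands among genes of higher level.

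Promoters were compared because the response elements of both pathways are short and known. The windows, from RefSeq on GRCm38.p6, run from 250 bases before to 50 after an annotated start, and 27 of the 37 genes had one. No window was used for Oas2, Mx1, Mx2, Gbp4, Gbp6, Iigp1, Usp18, Zbp1, Rtp4 and Dhx58. The ISRE was searched as GAAA, any 2 bases and GAAA again or, on the other strand, as TTTC, any 2 bases and TTTC, and the GAS as TTCNNNGAA, which reads the same on both strands. An ISRE match was found for 17 of the 27 genes, or 62.96%, and for 3.99% of all 27025 genes with a window. It was present for 7 of 7 Gbp and Irg genes, among them Gbp5, which had no counts, and for 4 of 7 Ifit and Oas genes. A GAS match was found for 9 of the 27 genes, or 33.3%, against 9.55% of all, for 4 of 7 Gbp and Irg genes and for 2 of 7 Ifit and Oas genes. An ISRE and a GAS match overlapped in 1 window, that of Bst2. A match describes the letters of the window and is not evidence of a bound site.

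The stretches that follow show the arrangement in measured genes of the contrast with an ISRE match before the start. They read 5′ to 3′ on the strand of the gene, on GRCm38.p6, with ISRE and GAS matches in capitals. The GAS match of Oas1a lies farther upstream than the stretch shown.
Ifit1 (chr19:34640777-34640821, plus strand): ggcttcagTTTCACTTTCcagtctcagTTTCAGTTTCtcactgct
Ifit3 (chr19:34583365-34583424, plus strand): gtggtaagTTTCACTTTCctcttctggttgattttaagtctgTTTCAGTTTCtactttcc
Oas1a (chr5:120907526-120907553, minus strand): cttctcggGAAATGGAAACTGAAAatct
Oas3 (chr5:120777717-120777742, minus strand): agggaggaGAAAACGAAAgtgaaggg
Gbp2 (chr3:142620596-142620621, plus strand): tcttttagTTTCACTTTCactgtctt
Gbp3 (chr3:142559991-142560022, plus strand): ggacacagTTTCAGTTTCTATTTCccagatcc
Gbp7 (chr3:142530222-142530300, plus strand): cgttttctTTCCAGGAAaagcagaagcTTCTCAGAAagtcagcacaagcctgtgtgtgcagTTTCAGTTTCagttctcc
Igtp (chr11:58199503-58199539, plus strand): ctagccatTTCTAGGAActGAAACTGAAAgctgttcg
Irgm1 (chr11:48871427-48871458, minus strand): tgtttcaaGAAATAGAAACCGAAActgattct
Irgm2 (chr11:58214894-58214930, plus strand): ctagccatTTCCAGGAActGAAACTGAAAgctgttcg
Ifit1 and Ifit3 each hold a pair of separate ISRE matches, while in Oas1a, Gbp3 and Irgm1 the pair overlaps. Igtp and Irgm2 hold a GAS match just before an ISRE match, and their stretches are equal at 36 of 37 bases. In Gbp7 the GAS matches number 2 and lie before the ISRE match.

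**Figure D3:**
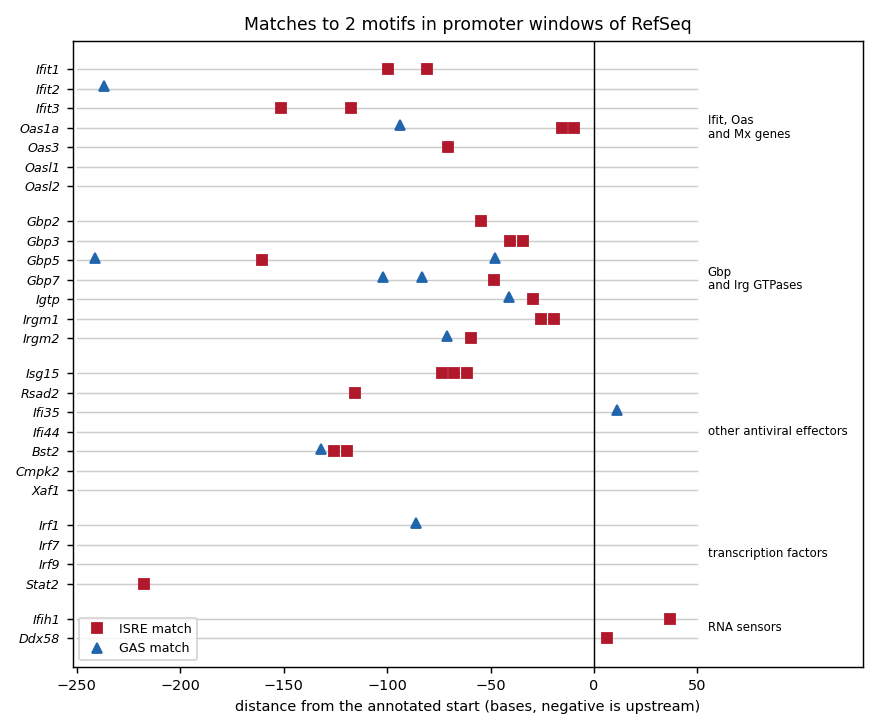
Positions of ISRE (squares) and GAS (triangles) matches by distance from the annotated start, in bases, for the 27 genes with a window, the first window where a gene has more than 1. Each of the 7 Gbp and Irg genes has an ISRE match, in Gbp5 farther upstream than in the others.

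Among the Oas genes, which encode synthases of the oligoadenylate that switches on RNase L, Oas2 stood apart. Oas2 (ENSMUSG00000032690, GRCm38 chromosome 5, 120730333 to 120749853, minus strand) had 949 counts in the PM2.5 library and 169 in the control library. Its level was 15.3 CPM in the PM2.5 library and 2.91 CPM in the control library, a ratio of 5.23 (4.44 to 6.20), higher than that of 98.8% of all genes tested. Oas3, which lies beside it, had 480 counts (7.72 CPM) in the PM2.5 library and 347 (5.99 CPM) in the control library, a ratio of 1.29 (1.12 to 1.48). Oas1a had 560 counts (9.003 CPM) in the PM2.5 library and 331 (5.71 CPM) in the control library, a ratio of 1.58 (1.37 to 1.81). The Oas1a value is uncertain, since 100% of its longest transcript lies in stretches of at least 125 nt that are at least 97% identical to Oas1g. Both genes together had a ratio of 1.65 (1.45 to 1.88). Of the Oas-like genes, Oasl1 makes no active synthase and is known in mice as a brake on Irf7 translation. Oasl1 had 274 counts (4.41 CPM) in the PM2.5 library and 190 (3.28 CPM) in the control library, a ratio of 1.34 (1.11 to 1.63). Oasl2 was far more abundant, with 2896 counts (46.6 CPM) in the PM2.5 library and 2452 (42.3 CPM) in the control library, and its ratio was 1.10 (1.04 to 1.16).

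The Mx genes, dynamin-like GTPases that block viral nucleocapsids, were both at least 2-fold higher at low levels. Mx1 (chromosome 16, 97447035 to 97462907, minus strand) had 370 counts in the PM2.5 library and 113 in the control library, at levels of 5.95 CPM in the PM2.5 library and 1.95 CPM in the control library. The ratio was 3.05 (2.47 to 3.80). Most laboratory strains, C57BL/6 among them, carry an Mx1 allele that makes no functional protein. Mx2, which GENCODE lists as a polymorphic pseudogene, had 231 counts (3.71 CPM) in the PM2.5 library and 105 (1.81 CPM) in the control library, a ratio of 2.05 (1.62 to 2.61). The lower bound for Mx2 lies below 2-fold.

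The Ifit genes, whose products bind viral RNA ends and block its translation, did not share a direction. Ifit3 had 3879 counts (62.4 CPM) in the PM2.5 library and 3063 (52.8 CPM) in the control library, a ratio of 1.18 (1.13 to 1.24). Ifit1 had 1399 counts (22.5 CPM) in the PM2.5 library and 1259 (21.7 CPM) in the control library, a ratio of 1.04 (0.959 to 1.12) whose interval includes equality. Ifit2 was lower, with 1964 counts (31.6 CPM) in the PM2.5 library and 2404 (41.5 CPM) in the control library, a ratio of 0.761 (0.717 to 0.809). Of the longest Ifit3 transcript, 97.4% is nearly identical to Ifit3b, so reads may be split between them. The pair together had a ratio of 1.23 (1.18 to 1.29).

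**Figure D4:**
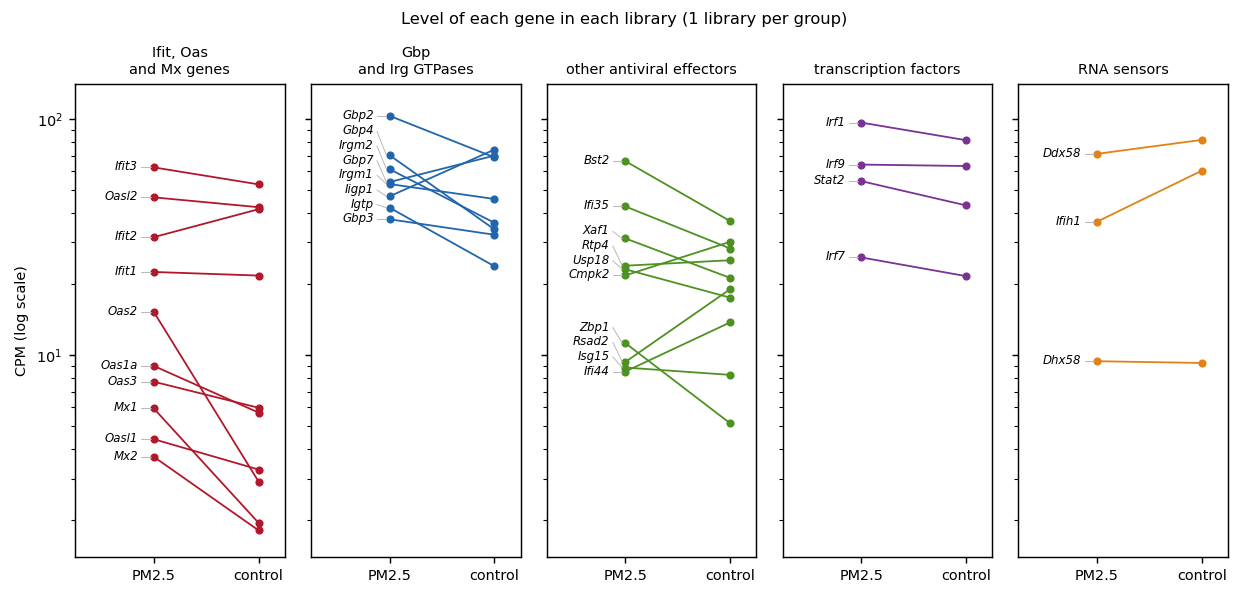
Level of each of the 35 genes in CPM (log axis), PM2.5 library left and control library right, joined by a line, in 1 panel per role. Oas2 and Mx1 have the steepest lines, with 15.3 and 5.95 CPM in the PM2.5 library against 2.91 and 1.95 CPM in the control library. The Ifit and transcription factor lines are less steep, and among them Ifit2 is higher in the control library.

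Of the guanylate-binding proteins, large GTPases that coat and break pathogen membranes, Gbp4 was the gene past 2-fold. Gbp4 (chromosome 5, 105115767 to 105139586, minus strand) had 4367 counts in the PM2.5 library and 1975 in the control library, at levels of 70.2 CPM in the PM2.5 library and 34.1 CPM in the control library. Its ratio was 2.06 (1.95 to 2.17), so the lower bound falls just short of 2-fold. Gbp2 had 6410 counts (103 CPM) in the PM2.5 library and 3987 (68.8 CPM) in the control library, a ratio of 1.498 (1.44 to 1.56) just under the 1.5-fold size. Gbp3 had 2338 counts (37.6 CPM) in the PM2.5 library and 1874 (32.3 CPM) in the control library, a ratio of 1.16 (1.09 to 1.24). Gbp7 was lower, with 3361 counts (54.0 CPM) in the PM2.5 library and 4055 (69.9 CPM) in the control library, a ratio of 0.773 (0.738 to 0.809). Gbp7 and Gbp2 belong to the same chromosome 3 cluster, each with an ISRE match, and lay on opposite sides of equality.

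The immunity-related GTPases also split. Igtp (also Irgm3) and Irgm2, regulators that keep the effector Irg proteins off the membranes of the cell itself, had similar ratios with overlapping intervals. Igtp had 2618 counts (42.1 CPM) in the PM2.5 library and 1379 (23.8 CPM) in the control library, a ratio of 1.77 (1.66 to 1.89). Irgm2 had 3811 counts (61.3 CPM) in the PM2.5 library and 2106 (36.3 CPM) in the control library, a ratio of 1.69 (1.60 to 1.78). The annotated genes overlap on chromosome 11 and share 162 bases of annotated exon, 8.01% of that of Igtp, so a small part of their reads cannot be assigned to one of them. The third regulator, Irgm1, lies at another locus of that chromosome and had 3297 counts (53.0 CPM) in the PM2.5 library and 2656 (45.8 CPM) in the control library, a ratio of 1.16 (1.10 to 1.22). Iigp1 (Irga6), an effector on chromosome 18, was 1.58-fold lower (1.504 to 1.65), with 2925 counts (47.0 CPM) in the PM2.5 library and 4300 (74.2 CPM) in the control library.

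Relatives outside the set were placed beside these genes along their loci. Of 7 further Gbp and Irg genes that reached a mean of 1 CPM, 2 were at least 2-fold higher (Gbp8 and Tgtp2) and 1 was lower (Tgtp1). Over all genes tested the shares were 7.25% and 6.04%. The chromosome 5 Gbp locus had a median log2 ratio of 1.12 over 4 genes, with Gbp8 at a ratio of 2.28 (1.95 to 2.69) and Gbp9 at 1.11 (1.06 to 1.17). Gbp4 shares 61 bases of annotated exon with Gbp8 and 60 with Gbp9, under 1% of its own exon length. Gbp11, an annotated polymorphic pseudogene there, had 71 counts in the PM2.5 library and 8 in the control library, a ratio of 8.27 (3.98 to 19.9). Across the chromosome 3 Gbp locus the median was 0.19 over 4 genes, with Gbp2b at a ratio of 1.11 (1.01 to 1.23). Tgtp1 and Tgtp2, Irg effectors known as Irgb6 copies, had ratios of 0.420 (0.372 to 0.474) and 3.62 (3.29 to 3.98). Their encoded proteins are 100% identical and nearly all of their transcripts are shared, so these values and both calls are uncertain. Together they had 2471 counts in the PM2.5 library and 1405 in the control library, a ratio of 1.64 (1.53 to 1.75). Ifi47 (Irgd), another Irg gene of that locus, had a ratio of 1.66 (1.57 to 1.76), so Iigp1 was lower while these relatives were higher. At the Ifit locus, the relatives Ifit1bl1, Ifit3b and Ifit1bl2 had ratios of 1.56, 1.45 and 1.52, above the 3 Ifit genes of the set. The values of Ifit3b and Ifit3 are uncertain, since 97.4% of the Ifit3 transcript is nearly identical to Ifit3b. Together they had a ratio of 1.23 (1.18 to 1.29). In the Oas locus Oas1b, known in C57BL/6 for a premature stop, had a ratio of 2.43 (2.02 to 2.93).

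**Figure D5:**
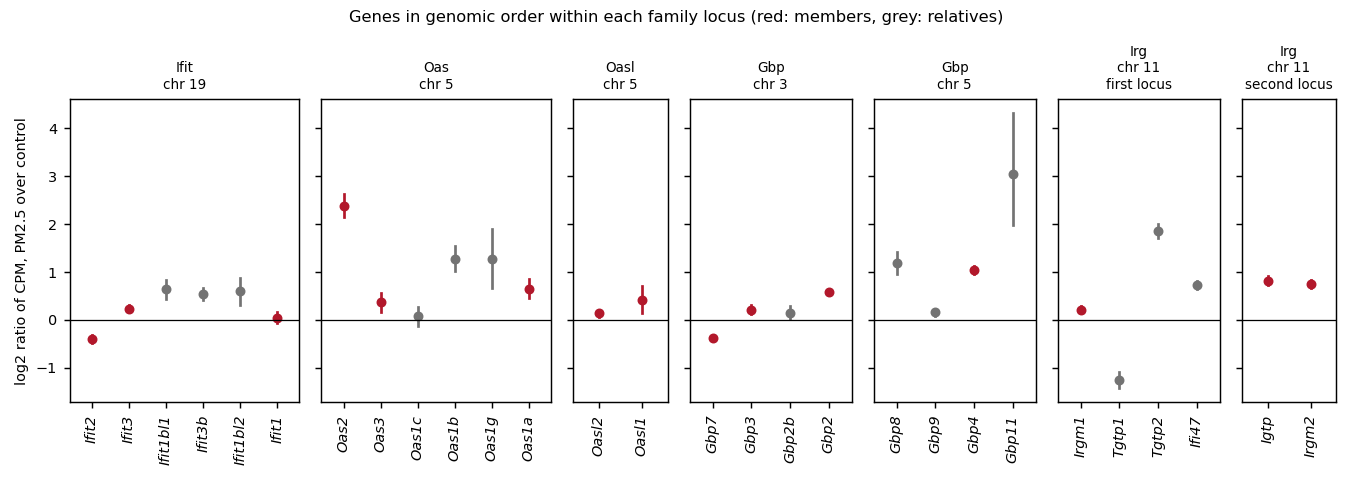
Log2 ratio, PM2.5 over control, with exact 95% counting intervals, for genes in genomic order at 7 family loci, with genes of the set in red and relatives in grey. Within the Oas locus the values run between 0.08 for Oas1c and 2.39 for Oas2, and Tgtp1 and Tgtp2, which share their reads, lie at -1.25 and 1.85.

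Other antiviral effectors held the set's lowest ratio and another of its highest. Zbp1, a sensor of Z-form nucleic acid that triggers cell death, had 699 counts (11.2 CPM) in the PM2.5 library and 298 (5.14 CPM) in the control library, a ratio of 2.19 (1.91 to 2.51). Rsad2 (viperin), a radical SAM enzyme that makes a chain-terminating nucleotide, had 582 counts (9.36 CPM) in the PM2.5 library and 1103 (19.025 CPM) in the control library. It was 2.03-fold lower (1.84 to 2.25), a size that library totals, upper quartile scaling or removal of the length trend brought under 2-fold. Its neighbour on chromosome 12, Cmpk2, a kinase that supplies the substrate of viperin, had a ratio of 0.721 (0.671 to 0.774). Both genes were therefore lower in the PM2.5 library, in contrast to Oas2 and Mx1.

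The remaining effectors lay between these. Bst2 (tetherin), which holds budding virions on the cell, had a ratio of 1.79 (1.70 to 1.89). Ifi35 and Xaf1 had ratios of 1.51 and 1.47, and Usp18, the protease that removes Isg15 and dampens type I signalling, had 1.32. Isg15, the ubiquitin-like modifier, had a ratio of 1.07 (0.949 to 1.22), and its window holds 3 overlapping ISRE matches. The ratio of Rtp4 was 0.948 (0.881 to 1.02), and for both genes the interval includes equality. The log2 ratio of Isg15 turns to -0.31 without the length trend and that of Rtp4 to 0.15 with library totals. Ifi44 was 1.62-fold lower (1.45 to 1.81).

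The transcription factors showed small differences. Irf1, induced by interferon gamma, had a ratio of 1.19 (1.14 to 1.23), and Irf7, the main amplifier of type I interferon, 1.20 (1.11 to 1.29). Stat2 had a ratio of 1.27 (1.20 to 1.33) and its partner Irf9 1.01 (0.970 to 1.06). None of the 4 genes reached 1.5-fold. Of the RNA sensors, Ifih1 (MDA5) was 1.64-fold lower (1.56 to 1.73). Ddx58 (RIG-I) had a ratio of 0.873 (0.837 to 0.909), which turns to a positive log2 ratio of 0.03 with library totals and 0.05 without the length trend. Dhx58 (LGP2), which modulates both, had a ratio of 1.02 (0.903 to 1.15).

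Most receptor, signalling and sensor genes upstream of the set were within 1.5-fold. Among 17 interferon genes with a row, 14 had no count in either library, Ifnb1 among them, which allows up to 0.0482 CPM in the PM2.5 library and 0.0517 CPM in the control library. Ifng had 37 counts in the PM2.5 library and 16 in the control library, a ratio of 2.16 (1.17 to 4.15) at a level below 1 CPM. None of 6 receptor genes reached 1.5-fold, and the most abundant per length, Ifngr1 and Ifngr2, had ratios of 0.740 and 0.858. Of 13 signalling genes, 1 was at least 1.5-fold higher (Irf3) and 2 were lower (Stat3 and Irf2), with ratios of 0.712 for the kinase Jak1 and 1.19 for the phosphatase Ptpn6. Of 14 upstream sensors and adaptors, 1 was higher (Ikbke) and 1 lower (Trim25). Over all genes tested, 14.9% were at least 1.5-fold higher and 19.1% at least 1.5-fold lower. Unc93b1, the chaperone of endosomal Toll-like receptors, had a ratio of 1.12, and Trim25, the ubiquitin ligase of RIG-I, 0.630. The median log2 ratios of these 3 groups were -0.21, -0.03 and -0.08, and all turn positive with library totals, at 0.02, 0.20 and 0.15.

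Further interferon-stimulated genes outside the set were described in the same way. Of 48 that reached a mean of 1 CPM, 6 were at least 2-fold higher and none lower, and at 1.5-fold 18 were higher and 2 lower. Beside these stand 7.25% higher and 6.04% lower of all genes tested at 2-fold, and 14.9% and 19.1% at 1.5-fold. Ifi27l2a had 5421 counts in the PM2.5 library and 1022 in the control library, a ratio of 4.94 (4.62 to 5.29). The membrane protein gene Ifitm1 had a ratio of 2.97 (2.80 to 3.14) and Ifi205, of the DNA-sensing family of p200 proteins, 2.72 (2.16 to 3.45). Among 13 genes known to respond to interferon gamma that reached a mean of 1 CPM, 2 were at least 2-fold higher and 1 lower. In the control library 2 of the 13 were below 1 CPM. Nlrc5, the activator of MHC class I genes, had 2303 counts in the PM2.5 library and 576 in the control library, a ratio of 3.73 (3.40 to 4.09). Nos2, the inducible nitric oxide synthase, had 140 counts in the PM2.5 library and 759 in the control library and was 5.82-fold lower (4.85 to 7.02). The chemokine genes Cxcl9 and Cxcl10 had ratios of 2.23 and 4.71 at levels near 1 CPM, and Cxcl9 reached a mean of 1 CPM through the PM2.5 library.

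Cell type markers differed between the libraries beside these genes. Lung epithelial markers were abundant in both. The alveolar type 2 list had 25409 CPM in the PM2.5 library and 22612 CPM in the control library. Sftpc made up 18643 CPM of it in the PM2.5 library and 14437 CPM in the control library. The other markers, Abca3, Sftpb, Sftpa1 and Lamp3, had ratios below 1, the lowest 0.516 for Abca3. For Lamp3 the interval includes equality. The median log2 ratio of the alveolar type 2 list was -0.09. Of 8 neutrophil markers 7 were at least 2-fold higher, where 7.25% of all genes tested were. That list had a summed level of 1617 CPM in the PM2.5 library and 489 CPM in the control library. Among the 7, Ly6g had 0.483 CPM in the control library and reached a mean of 1 CPM through the PM2.5 library. Of 7 NK cell markers 4 were at least 2-fold higher, with 84.8 CPM in the PM2.5 library and 37.4 CPM in the control library. The T cell list had 85.4 CPM in the PM2.5 library and 85.5 CPM in the control library. Of 6 endothelial markers 4 were at least 2-fold lower, where 6.04% of all genes tested were. That list had 2320 CPM in the PM2.5 library and 4953 CPM in the control library. Of 4 red blood cell markers 3 were also at least 2-fold lower, with 2117 CPM in the PM2.5 library and 5163 CPM in the control library. The club cell list had 33029 CPM in the PM2.5 library and 21504 CPM in the control library. The plasmacytoid dendritic cell list, which includes Bst2, had 253 CPM in the PM2.5 library and 313 CPM in the control library. Tcf4 made up 128 CPM of it in the PM2.5 library and 238 CPM in the control library, and the other 6 markers had ratios above 1, among them the defining gene Siglech at 1.08 (0.878 to 1.32). The B cell list had 347 CPM in the PM2.5 library and 196 CPM in the control library. Monocyte markers did not share a direction. Their sum was 913 CPM in the PM2.5 library and 1973 CPM in the control library, of which Ace, which endothelium also expresses, made up 667 CPM in the PM2.5 library and 1770 CPM in the control library. The median log2 ratio of that list was 0.12. Ly6c2 had a ratio of 1.83, Ccr2 1.59, F13a1 1.44 and Nr4a1 1.09. Lower were Fcgr4 at 0.971 (0.881 to 1.07) and Cx3cr1 at 0.601 (0.552 to 0.653). All 5 fat markers were at least 2-fold higher, with 159 CPM in the PM2.5 library and 12.02 CPM in the control library. Ucp1 and Lep each had 8 counts (0.138 CPM) in the control library and reached a mean of 1 CPM through the PM2.5 library. No marker on any list was at 0 in either library. In whole tissue, fewer cells of a type and less RNA per cell cannot be told apart, and the part of these cell types in the values above was not tested. Longer genes had lower ratios (Spearman's rho = -0.31 over 14386 genes, and -0.33 over the 35). With that trend removed, the same 5 genes were at least 2-fold higher, and the medians were 0.47 for Ifit, Oas and Mx and 0.49 for Gbp and Irg.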

How the data were processed

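The authors deposited 1 table of raw counts per library, keyed by Ensembl gene and not normalized, made with TopHat2 2.1.1, HTSeq 0.6.0 and mm10, per the submitters' processing notes. The sources used here do not give the annotation release or the strand setting. Per the labels' protocols, poly(A) RNA was sequenced from stranded libraries in paired reads of 125 bp. Counts were scaled with TMM (edgeR 4.0.16). The ratio carries an exact 95% Clopper-Pearson interval, which covers counting error alone. Reads carry no molecular identifiers, so the interval takes every count as independent. With 1 library per group no test was possible. Named genes were the 18 measured ones of the contrast, others past 2-fold and, of further lists, those past 2-fold (at most 4 per direction) or the 2 most abundant per length, beside relatives at the family loci. Members and lists were chosen with earlier results of these data known. Zero counts were set against a floor of 3 counts. Transcripts were compared with BLAST 2.17.0. Alternatives were 4 other scalings (one with DESeq2 1.42.0), thinning, removal of the length trend (lowess), level filters, other sizes and exclusion of close copies.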

Additional observations from a re-analysis of the deposited data

How the results depend on the processing

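No paired analysis was possible because there is 1 library per group. The number of genes at least 2-fold higher was 5, and became 7 with library totals (Igtp and Bst2 added), 1 when only genes above 10 CPM were kept, 10 with a 1.5-fold size and 2 where the interval bound had to exceed 2-fold. The number at least 2-fold lower was 1, and became 0 with library totals, with upper quartile factors, with the length trend removed and with the bound beyond 2-fold, and 4 at 1.5-fold. The Ifit, Oas and Mx median of 0.40 became 0.63 with library totals and 0.095 at 10 CPM. The Gbp and Irg median of 0.40 became 0.63 with library totals, 0.54 with upper quartile factors and 0.49 without the length trend. Their difference became -0.31 at 10 CPM, where only 4 Ifit, Oas and Mx genes are left. The summed log2 ratio of Ifit, Oas and Mx, 0.22, became 0.45 with library totals, 0.35 with upper quartile factors and 0.042 at 10 CPM. That of Gbp and Irg, 0.28, became 0.51 with library totals, 0.42 with upper quartile factors and 0.40 without the length trend. A scaling moves all ratios alike, and the cause of the other shifts was not tested. Over 6 alternatives, 5 of 210 values of single genes changed sign, in Isg15, Rtp4 and Ddx58. None of them passed 1.5-fold. DESeq2 size factors, TMM without the 100 most abundant genes and thinning left the counts at 5 and 1. The removal of Ifit3 and Oas1a could not change these counts, because neither gene passed 2-fold.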

Other observations

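The ISRE and GAS matches were also read across all genes tested that had a promoter window. The 447 genes with an ISRE match had a median log2 ratio of 0.0026, PM2.5 over control, and the 10628 without one had -0.10. At least 2-fold higher were 7.38% of the genes with a match and 6.29% of those without, and 5.59% and 5.64% were at least 2-fold lower. With the genes of the set left out, 431 genes with a match had a median of -0.01 and 7.66% were at least 2-fold higher. The 912 genes with a GAS match had a median of -0.07. In the 68 genes with both matches the median was 0.04, and 8.82% were at least 2-fold higher and 7.35% at least 2-fold lower. A match therefore went with only a small shift over the genes at large. Rsad2, the lowest gene of the set, carries an ISRE match. The 5 genes of the set that were at least 2-fold higher had no window, so these values do not cover them.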
